A study of Mus musculus with 17 samples.

Results

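The 9 lines described here are cultures of 32D, an immortalised mouse myeloblast-like line that needs interleukin-3 (IL-3) to grow, and each carries a different internal tandem duplication (ITD) mutant of the human receptor FLT3. They were chosen by their titles, which name a numbered mt FLT3 construct, and make up 9 of the 17 arrays of the series. They are called ITD lines 1 to 9. The other 8 arrays are 4 control groups of 2 arrays, each labelled as biological replicates: 32D with human wild-type FLT3 grown with FLT3 ligand (20 ng/mL), 32D with human wild-type FLT3, 32D with the empty retroviral vector pLXRN, and untransduced parental 32D. All cultures received RPMI medium with 10% fetal calf serum. The ITD lines grew without IL-3, while parental, vector and wild-type cells received 1 ng/mL of the mouse cytokine. The growth protocol does not settle whether the ligand-treated culture also kept IL-3. The ITD lines were obtained by withdrawing IL-3 after transduction, and the vector and wild-type lines by G418 selection. All transduced cultures were polyclonal populations. Each mutant is represented by 1 line and 1 array, so the effects of a mutant, of making a line and of a single culture cannot be told apart, and no line was tested on its own.

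FLT3 sits on early blood progenitors and is a tyrosine kinase receptor that is switched on when its ligand joins receptor molecules into a dimer. An ITD lengthens the juxtamembrane segment that normally restrains the kinase, so that the receptor signals without ligand through STAT5, ERK and AKT. Such mutations are among the most frequent in acute myeloid leukaemia, and in 32D cells they replace the need for IL-3. The question put to the 9 arrays was which genes and gene programmes differ between lines that all depend on an ITD receptor, and which of them move together.

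Expression was read on exon arrays as log2 signals, and the value of a gene is the mean over its probe sets. Of 30 Flt3 probe sets, 6 read higher in every FLT3-transduced array than in any vector or parental array and were taken to detect the human transgene. Over these 6, the ITD lines averaged 9.11 ± 0.24 (SD, n = 9, range 8.73 to 9.48). The same probe sets averaged 8.73 ± 0.01 in ligand-treated wild-type cells, 8.53 ± 0.05 in wild-type cells, 3.61 ± 0.22 in vector cells and 3.96 ± 0.12 in parental cells (SD, n = 2 each). The order of the transduced and untransduced arrays follows from this choice of probe sets, and the size of the gap is a description. Of 14 markers of the myeloblast label, 13 were measured, at a median log2 level of 10.36 over the ITD lines. The primary granule enzymes Mpo and Prtn3 read at least 10.25 in every ITD line, while 2 of the 13, Cd34 and Kit, averaged under 6. Of markers for other cells the sample could hold, 11 of 17 lymphoid and plasmacytoid genes averaged under 6 over the ITD lines. So did 8 of 23 mast cell and basophil genes and 3 of 9 eosinophil genes. The rest averaged higher, among them the mast cell genes Fcer1a (10.23) and Cpa3 (9.15) and the eosinophil gene Epx (11.67). Any 2 ITD arrays correlated across genes at 0.966 to 0.988, and lines 7, 4 and 9 had the lowest mean correlations with the others (0.969, 0.972 and 0.974).

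The spread over the 9 ITD lines was wider than the spread within control pairs for most genes, but it was no wider than the spread between the 4 control groups. The median SD of log2 signal over the ITD arrays was 0.199, against a median of 0.124 within control pairs. The ITD SD was the larger of the 2 in 75.5% of 20227 genes. Taking 1 array from each control group gave a median SD of 0.207 with replicate 1 and 0.224 with replicate 2, and the ITD SD exceeded these in 48.7% and 42.7% of genes. An SD of at least 1, which is a change of 2-fold for each SD, was reached by 48 genes over the ITD lines and 26 within control pairs. Over the control groups it was reached by 210 and 202 genes. The ITD lines thus differed from each other mainly by small amounts, with fewer extreme genes than cultures that differ in vector, receptor or growth factor. An SD over 4 arrays is less precise than one over 9, which widens its upper tail, so these counts are not on an equal footing.

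**Figure D1:**
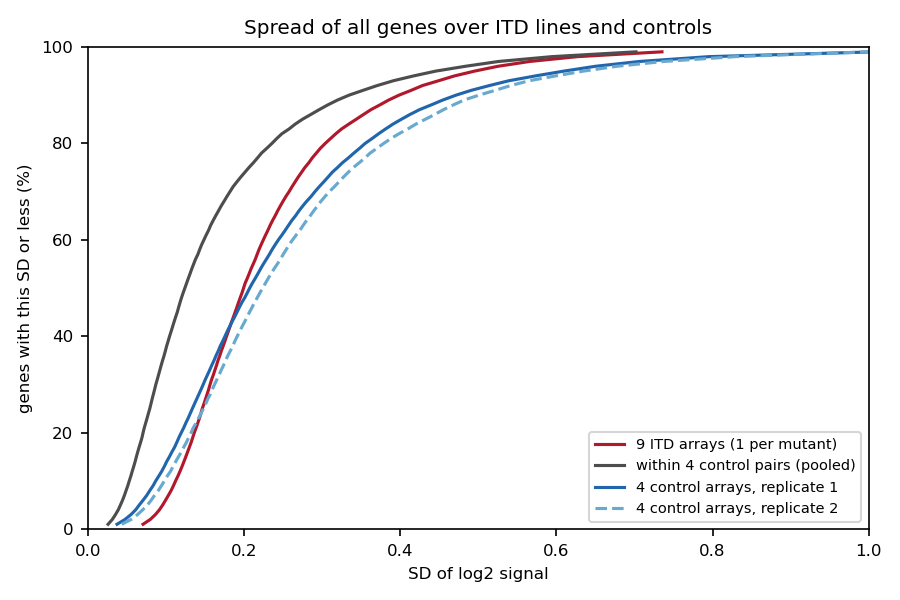
Cumulative percentage of 20227 genes (vertical axis) against the SD of log2 signal (horizontal axis) for the 9 ITD arrays, for 4 control arrays with 1 from each group, and for the spread within the 4 control pairs. The ITD curve (median 0.199) lies to the right of the within-pair curve (median 0.124) and crosses the curves of the control groups (medians 0.207 and 0.224).

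A moderated F test in limma compared the variation over the 9 lines with that within the control pairs, and 3729 of 20227 genes passed at a Benjamini-Hochberg adjusted p under 0.05. That is 18.4% of all genes, the background against which the counts of each programme below are read. This background is not matched for signal level. With only probe sets of a mean above 6 it was 25.4% of 17630 genes. Primary granule, mitosis and replication genes had median levels of 11.2, 9.82 and 9.31 over the ITD lines, so 18.4% may be too low a background for them. The called genes had a median SD of 0.275, and 408 of them had an SD of at least 0.5. The count rests on the variance model: it was 801 without the trend of variance on signal and 516 with an ordinary F ratio, and without vector replicate 1 or replicate 2 it was 2388 or 2390. With the ordinary F ratio, the count fell by more than 1.5 times in each list below that held a called gene. Without lines 4 and 7 together it was 1602, an alternative added after the data were seen. In genes with at least 4 probe sets, values from odd and from even probe sets were correlated over the 9 lines. The median r was 0.92 for called genes and 0.53 for genes that were not called. Called genes were chosen by the spread of these same values, so a higher r is built into the choice. Both sets of probe sets share an array, so r does not measure how repeatable a line is.

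The widest spread belonged to a mixed set of surface receptors, granule proteins, enzymes and a Y-linked gene. Il2ra, the alpha chain of the interleukin-2 receptor and a known STAT5 target, read 10.76 in line 1, 9.53 in line 6 and 5.32 in line 9, with a median of 7.30 and an SD of 1.63 (limma adjusted p = 8.88e-05). Its highest and lowest lines were 43.4-fold apart. Il2ra read 9.22 and 9.46 in ligand-treated wild-type cells, 8.89 and 8.71 in wild-type cells, 8.94 and 8.92 in vector cells, and 4.53 and 5.06 in parental cells. Line 1 thus lay above all controls, and line 9 lay near parental cells.

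Lines 1 and 6 were also the 2 highest for 3 other genes of wide spread. Akr1c19, an aldo-keto reductase, read 8.36 and 7.98 in lines 1 and 6, against 3.73 to 7.11 in the other 7 lines (SD 1.71). Sema7a, a membrane-anchored semaphorin, read 9.73 and 8.43, against 5.39 to 6.72 in the other 7 (SD 1.37). Usp17ld, a member of the cytokine-inducible DUB deubiquitinase family, read 10.13 and 9.35, against 5.55 to 8.62 (SD 1.46). It is one of a multigene family of near-identical copies, so its signal is uncertain. All 3 passed the test, with limma adjusted p from 3.44e-05 to 8.88e-05.

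Other genes split the lines differently. Fcer1a, the alpha chain of the high-affinity IgE receptor of mast cells and basophils, read 11.97, 11.78 and 11.68 in lines 9, 7 and 8, against 7.31 in line 5 (SD 1.58). Serpina3f, an intracellular serine protease inhibitor, read 5.30 and 5.69 in lines 4 and 7, against 6.87 to 9.68 in the other 7 (SD 1.5). Its neighbour in the same gene family, Serpina3g, was lowest in the same 2 lines, at 7.60 and 7.77, against 8.92 to 10.44. The receptor tyrosine kinase Met read 4.42 in line 4 and 5.56 in line 9, against 7.23 to 7.90 in the other 7 lines (SD 1.19). Members of the Serpina3 cluster are close copies, so their signals may be shared.

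The programme whose members moved most tightly together was that of p53 targets. The p53 protein is a transcription factor that answers DNA damage and other stress by raising genes for cell cycle arrest, death and its own degradation, and MDM2, which it induces, marks it for destruction. Of 14 measured targets, 11 passed the test (78.6%, against 18.4% of all genes). The median pairwise correlation of the list over the 9 lines was 0.82, against quartiles of -0.31 and 0.31 over all gene pairs. Without lines 4 and 7 it was 0.56, and 5 of the 14 then passed. The count was also 5 without the variance trend and 2 with an ordinary F ratio. The 8 control arrays gave a median correlation of 0.57. They are 4 groups of 2 arrays, not 8 separate lines, and the groups differ in receptor, vector or growth factor. Correlations over the controls, here and below, are therefore not on an equal footing with those over the 9 lines. Because this list moved together most, all its members are given, a choice made after their values were seen.

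Lines 4 and 7 were the 2 highest for most of these genes. Mdm2 read 11.34 in line 4 and 11.22 in line 7, against 9.59 to 10.29 in the other 7 lines, with a median of 9.70 over all 9 (SD 0.69, 0.07 within control pairs, limma adjusted p = 9.57e-05). Its control values were 9.72 and 9.81 in ligand-treated wild-type cells, 10.10 and 9.93 in wild-type cells, 9.47 and 9.43 in vector cells and 9.46 and 9.44 in parental cells. Lines 4 and 7 lay above every control, and the other lines overlapped them. Cdkn1a, the p21 inhibitor of cyclin-dependent kinases, read 10.86 and 10.85 in lines 4 and 7, against 9.80 to 10.32 in the other 7 (SD 0.40, limma adjusted p = 0.00401). Its controls ran between 9.59 in a vector array and 10.31 in a wild-type array, below lines 4 and 7.

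Targets that act on survival and metabolism followed the same order. Trp53inp1, a stress-induced partner of p53, read 10.41 and 10.22 in lines 4 and 7, against 8.77 to 9.72 (SD 0.55). Eda2r, a receptor of the TNF receptor family, read 9.69 and 9.53, against 7.88 to 8.80 (SD 0.53). Bbc3, which encodes the killer protein PUMA, read 8.60 and 8.82, against 7.37 to 8.42 (SD 0.43). The groups of lines did not overlap in any of the 3. Sesn2, a sestrin that restrains mTORC1, read 9.24 and 8.72, against 7.90 to 8.57 (SD 0.43). Phlda3, an inhibitor of AKT, read 10.33 and 10.31, against 9.44 to 9.92 (SD 0.34). Zmat3, an RNA-binding protein, read 8.92 and 8.83, against 7.72 to 8.51 (SD 0.35), and Gtse1, a microtubule-binding protein that limits p53 in G2, read 9.86 and 9.66, against 8.83 to 9.45 (SD 0.36). Line 5 was the next highest for Mdm2, Cdkn1a, Bbc3, Sesn2, Phlda3 and Gtse1.

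Smaller shifts were seen in the remaining members. Ei24, a membrane protein of the endoplasmic reticulum, read 10.96 and 10.99 in lines 4 and 7, against 10.32 to 10.86 in the other 7, and Ccng1, cyclin G1, read 12.33 and 12.20, against 11.70 to 12.24. Both passed the test (limma adjusted p = 0.00596 and 0.00451), although Ccng1 in line 3 exceeded line 7. Aen, a nuclease of the p53 response, read 9.45 and 9.58, against 8.82 to 9.19, and did not pass (limma adjusted p = 0.0633). Perp, a desmosomal protein, ranged between 4.89 and 5.89 and Plk2, a polo-like kinase, between 5.10 and 5.37, without passing (limma adjusted p = 0.219 and 0.99). The level of Trp53 itself was not analysed here.

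The promoters of 4 called members are printed because they hold the p53 half-site, the decamer that a p53 dimer recognises. Each is the 250 bases upstream of the RefSeq start of the gene on GRCm38.p6, written 5′ to 3′ on the gene's strand, with matches to the half-site in capitals. They lie at chr10:117710759-117711008 on the minus strand for Mdm2, at chr17:29090729-29090978 on the plus strand for Cdkn1a, at chr9:36797335-36797584 on the minus strand for Ei24 and at chr11:40755287-40755536 on the minus strand for Ccng1.
Mdm2: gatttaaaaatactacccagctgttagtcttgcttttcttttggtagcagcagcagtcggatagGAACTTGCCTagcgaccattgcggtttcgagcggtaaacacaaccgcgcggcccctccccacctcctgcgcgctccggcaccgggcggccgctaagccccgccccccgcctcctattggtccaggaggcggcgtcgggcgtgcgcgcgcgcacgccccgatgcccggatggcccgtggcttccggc
Cdkn1a: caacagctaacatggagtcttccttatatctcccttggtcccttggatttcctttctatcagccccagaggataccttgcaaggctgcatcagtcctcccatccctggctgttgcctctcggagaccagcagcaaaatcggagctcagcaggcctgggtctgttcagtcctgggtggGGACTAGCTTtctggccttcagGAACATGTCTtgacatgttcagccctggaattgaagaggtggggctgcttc
Ei24: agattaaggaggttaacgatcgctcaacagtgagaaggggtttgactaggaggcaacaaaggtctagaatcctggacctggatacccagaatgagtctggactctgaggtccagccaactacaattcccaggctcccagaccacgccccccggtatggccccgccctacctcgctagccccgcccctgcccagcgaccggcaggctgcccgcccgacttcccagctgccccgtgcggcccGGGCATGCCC
Ccng1: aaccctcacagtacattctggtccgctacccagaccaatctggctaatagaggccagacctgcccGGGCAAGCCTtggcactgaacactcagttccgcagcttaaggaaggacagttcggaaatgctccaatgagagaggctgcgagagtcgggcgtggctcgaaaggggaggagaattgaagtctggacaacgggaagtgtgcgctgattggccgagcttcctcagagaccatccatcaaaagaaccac
Both strands were searched, which for this palindromic motif gives the same matches, and Cdkn1a holds 2. Of 11 measured members with a promoter in the table, 5 hold a match (45.5%), against 8.2% of 27025 genes and 7.13% of all windows of 250 bases. The list was made of known p53 targets, so a higher share of matches describes the list and is not a result about these lines. A match describes letters only, and binding was not measured.

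**Figure D2:**
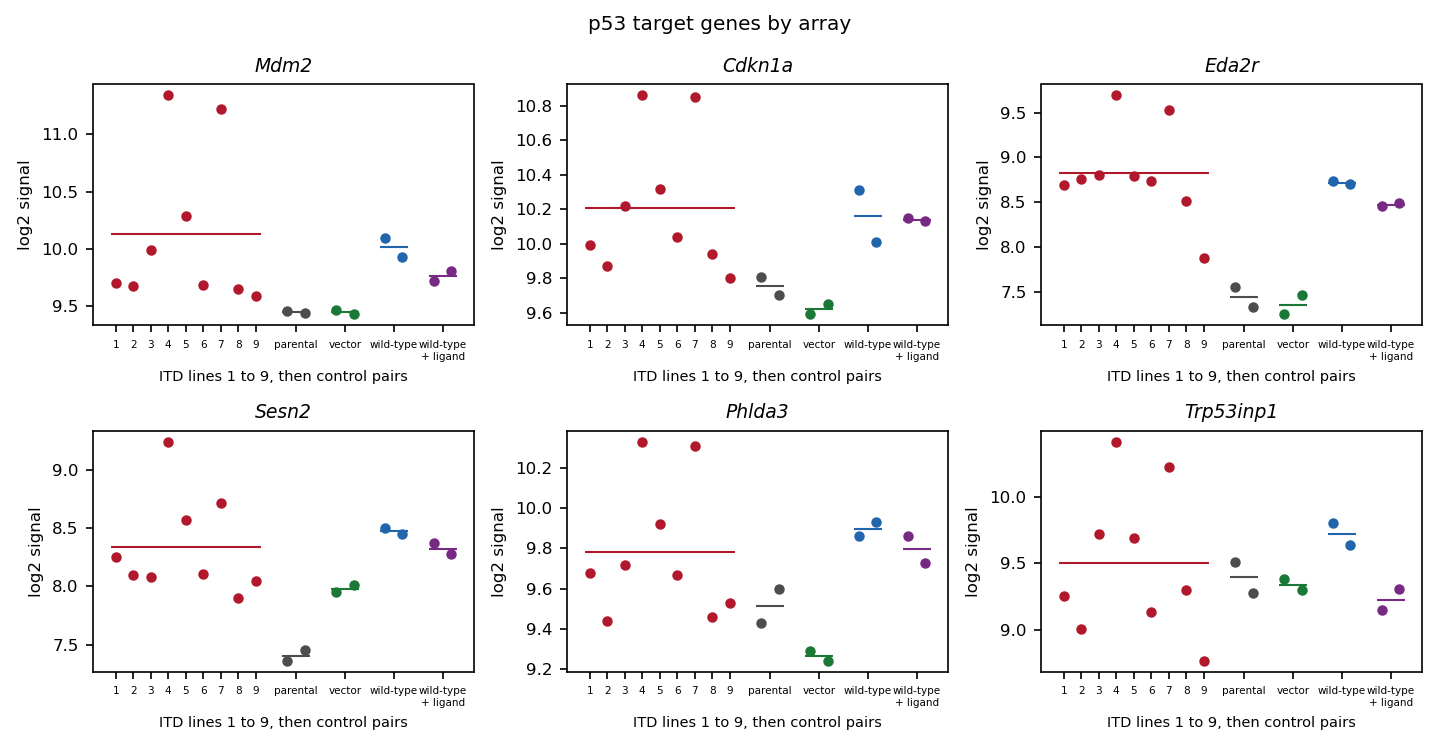
Log2 signal (vertical axes) of 6 p53 targets in each array (horizontal axes), with ITD lines 1 to 9 on the left, the control pairs on the right, and a bar at each group's mean. In all 6 genes the points of ITD lines 4 and 7 lie above those of the other 7 ITD lines, with Mdm2 at 11.34 and 11.22 against at most 10.29.

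The same 2 lines stood apart in stress-response genes that are not on the p53 list. Of 15 measured genes of the handling stress list, the immediate early and heat shock genes that also react to how cells are harvested, 10 passed (66.7%), with a median pairwise correlation of 0.40, and of 0.11 without lines 4 and 7. Jun, a subunit of the AP-1 factor, read 8.17 in line 4, 8.10 in line 7 and 7.59 in line 5, against 5.80 to 6.46 in the other 6 lines (SD 0.94, 0.10 within control pairs, limma adjusted p = 0.000218). Its partner Fos read 8.28, 7.87 and 7.0 in lines 4, 7 and 5, against 5.84 to 6.53 in the others (limma adjusted p = 0.00156). Atf3, a stress-induced repressor of the ATF family, read 7.75, 7.59 and 7.67, against 6.40 to 6.82 (limma adjusted p = 0.00434). The 3 lines did not overlap the other 6 in any of these genes. A pair of chaperone genes went the other way: Hspa8 was lowest in lines 4 and 5, at 12.72 and 12.76, against 12.88 to 13.06 in the others, and Hsp90aa1 was lowest in line 7, at 11.75. The mean of the whole list lay 0.43 and 0.33 above the ITD mean in lines 4 and 7 and 0.33 below it in line 8. Since these genes respond to handling and the ITD arrays have no replicates, the part of harvest in the pattern of lines 4 and 7 was not tested.

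The amino acid response, which ATF4 drives when amino acids run short or proteins misfold, showed a related order. Of 22 genes, 13 passed (59.1%), with a median pairwise correlation of 0.32, and of 0.12 without lines 4 and 5. Ddit3, the CHOP factor, read 10.79, 10.59 and 10.57 in lines 4, 5 and 7, against 9.07 to 9.74 in the other 6 (limma adjusted p = 0.000481). The pseudokinase Trib3 read 11.21, 11.16 and 11.03 in those lines, against 9.95 to 10.29 (limma adjusted p = 0.00112). In controls Trib3 averaged 11.11 in ligand-treated wild-type, 11.08 in wild-type, 9.61 in vector and 8.81 in parental cells, so the 3 high ITD lines were near the wild-type FLT3 lines. The synthesis genes Asns and Psat1, a listed pair within this programme, did not correlate detectably over the 9 lines (r = 0.32, exact permutation adjusted p = 0.551).

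Cell cycle genes were lowest in line 7. Of 24 measured genes of DNA replication and S phase, 20 passed (83.3%), with a median correlation of 0.66 over the ITD lines, 0.36 without lines 4 and 7, and 0.60 over the controls. The mean of the list lay 0.41 below the ITD mean in line 7 and 0.19 below it in line 4, and 0.25 above it in line 9. Gins1, a subunit of the replicative helicase, read 9.44 in line 9 and 7.61 in line 7, against 8.33 to 9.15 in the other 7 (limma adjusted p = 0.000386). Its partner Gins2 read 9.72 in line 9, against 8.02 to 8.88 in the others (limma adjusted p = 0.000754). Line 9 was thus the highest for both helicase subunits, and line 7 the lowest. Rrm2, a subunit of ribonucleotide reductase with a single probe set here, went the other way and was highest in line 7, at 6.70, against 4.69 to 6.20. The pair Mcm5 and Pcna, a helicase subunit and the sliding clamp, correlated with r = 0.81 and rho = 0.87 (exact permutation adjusted p = 0.0328 for r), and with r = 0.84 without lines 7 and 9. Without line 7 the count of called genes on the list was 13 of 24, without lines 4 and 7 it was 10, and it was 5 both without the variance trend and with an ordinary F ratio.

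Mitosis genes showed a partly different order. Of 23 measured, 17 passed (73.9%), with a median correlation of 0.62 over the ITD lines, 0.33 without lines 7 and 8, and 0.86 over the controls. The mean lay 0.36 and 0.18 below the ITD mean in lines 7 and 8 and 0.25 above it in line 5. Ttk, a spindle checkpoint kinase, read 8.26 in line 7, against 8.98 to 9.49 in the other 8 (limma adjusted p = 0.00244). Cenpe, a kinetochore motor, was highest in lines 4 and 5, at 8.94 and 8.90, against 7.87 to 8.47 in the other 7, and Cdc25c, a phosphatase that activates CDK1, was highest in the same 2 lines at 8.54 and 8.72, against 7.80 to 8.13. Line 4 therefore lay low for replication genes and high for some mitosis genes. The mitosis count rests on the variance model and on line 7. Without the variance trend it was 1 of 23, close to the 3.96% of all genes that then passed. With an ordinary F ratio it was also 1. Without line 7 it was 7 of 23, where 13.3% of all genes passed, and without lines 4 and 7 it was 5.

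Regulators of the step into S phase did not move as a group. Of 13 cyclins of G1, their kinases and inhibitors, 5 passed (38.5%), and their median correlation was -0.03. Cdk6, a kinase of early progenitors, read 10.75 in line 7 and 11.05 in line 5, against 11.22 to 11.63 in the others. Rb1, the retinoblastoma protein gene, read 9.89 in line 4, against 8.61 to 9.47. Of 18 apoptosis regulators, 6 passed (33.3%), among them Fas, a death receptor and also a p53 target, with 7.79 and 7.51 in lines 4 and 7, against 6.32 to 7.43 in the other 7. Bcl2, the survival gene, read 9.84, 10.04 and 10.08 in lines 7, 4 and 5, against 10.40 to 10.77 in the other 6 (limma adjusted p = 0.00322), which is the reverse of the order of Fas and Bbc3.

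Granule genes of the neutrophil lineage had their lowest list means in line 4. Primary granule genes mark promyelocytes, and late granule genes mark their more mature descendants. Of 9 measured primary granule genes, 8 passed (88.9%), with a median correlation of 0.42, and of 0.52 without lines 4 and 7. Mpo, myeloperoxidase, read 10.25, 10.29 and 10.66 in lines 4, 7 and 5, against 10.87 to 11.48 in the other 6 lines (limma adjusted p = 0.00029). Prtn3, proteinase 3, read 11.36, 11.31 and 11.67 in those lines, against 12.16 to 12.43 (limma adjusted p = 0.000218). Nkg7, a granule membrane protein, read 10.91, 10.29 and 11.25, against 11.35 to 11.62 (limma adjusted p = 0.000219). In all 3 genes, lines 4, 5 and 7 lay below the other 6. Ctsg, cathepsin G, did not pass (limma adjusted p = 0.123). It read 11.92 to 12.21 and was highest in lines 5 and 6.

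Of 27 late granule and mature neutrophil genes, 20 passed (74.1%), with a looser median correlation of 0.29. With an ordinary F ratio 9 of the 27 passed. Ltf, lactoferrin, read 6.69 in line 4 and 7.60 in line 5, against 8.25 to 9.51 in the other 7 (SD 0.86, 0.03 within control pairs, limma adjusted p = 2.35e-05). Complement component C3 read 6.54 and 7.43 in lines 4 and 5, against 8.13 to 9.22 (limma adjusted p = 3.44e-05). S100a8 and S100a9, which encode the subunits of calprotectin, correlated with r = 0.96 and rho = 0.92 (exact permutation adjusted p = 0.00185 for r), and with r = 0.94 without lines 4 and 9. S100a8 ran between 9.39 in line 4 and 11.74 in lines 6 and 9, with a median of 11.01. In controls it read 12.8 in ligand-treated wild-type, 12.81 in wild-type, 12.59 in vector and 12.39 in parental cells (means of 2), above every ITD line. Stfa2, a stefin with a single probe set and with near-identical copies, ranged from 2.20 to 5.46 and is uncertain. Not all called members had line 4 at the low end. Cxcr2, a chemokine receptor, read 7.13 in line 4 and was lowest in line 7, at 5.03. Lcn2, lipocalin 2, fell in the largest module described below, whose mean was high in lines 7, 4 and 5. The late granule gene S100a8 and the primary granule gene Mpo had r = 0.74, without passing the adjustment (exact permutation adjusted p = 0.0743).

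Eosinophil granule genes were lowest in line 5 and included the listed pair with the highest correlation, Prg2 and Prg3. The major basic protein gene Prg2, its homologue Prg3 and the peroxidase gene Epx encode the toxic proteins of the eosinophil granule. Prg2 had its lowest value, 7.96, in line 5, a median of 11.23 and its highest value, 11.71, in line 7 (SD 1.20, 0.11 within control pairs, limma adjusted p = 2.45e-05). Its control values were 5.86 and 6.04 in ligand-treated wild-type cells, 6.43 and 6.27 in wild-type cells, 9.37 and 9.56 in vector cells, and 12.32 and 12.30 in parental cells. Every ITD line lay above the wild-type FLT3 lines and below parental cells, and line 5 alone lay below the vector line. Prg2 and Prg3 correlated with r = 0.98 and rho = 0.98 (exact permutation adjusted p = 0.000265 for r), and with r = 0.95 without lines 5 and 6. Prg2 and Epx had r = 0.90 (exact permutation adjusted p = 0.0311), and 0.87 without lines 5 and 6. Prg2 and Prg3 are neighbours and homologues, so part of their signal could be shared. Ear6, an eosinophil ribonuclease of a multigene family, read 4.60 in line 5 and 5.78 in line 6, against 7.05 to 8.22 in the other 7 lines.

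The receptors of the eosinophil list did not share this spread. Of 9 measured members 6 passed (66.7%), or 4 without the variance trend and 2 with an ordinary F ratio, and the list mean lay 1.17 below the ITD mean in line 5 and 0.60 above it in line 7. Ccr3, the eotaxin receptor, ranged from 3.88 to 5.45 and Il5ra, the interleukin-5 receptor, from 4.34 to 5.50, without passing (limma adjusted p = 0.291 and 0.482). Both read under 6 in every ITD line, the range in which probe sets with little or no signal lie, so the lines differed in granule transcripts and no difference in the receptors was detectable. Prg2 did not correlate detectably with S100a8 (r = 0.40), with the basophil protease gene Mcpt8 (r = -0.04) or with Gata1 (r = -0.40; exact permutation adjusted p from 0.307 to 0.912 for the 3).

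Mast cell and basophil genes varied widely but each in its own way. Of 23 measured genes 13 passed (56.5%), and their median pairwise correlation was 0.02. Gzmb, granzyme B, ran from 8.04 in line 7 to 10.80 in line 2 (limma adjusted p = 3.22e-05). Il6, a cytokine that mast cells also release, ran from 4.97 in line 8 to 8.55 in line 3 (limma adjusted p = 0.0019). Alox5, the 5-lipoxygenase that starts leukotriene synthesis, ran from 6.12 in line 7 to 8.95 in line 4 (limma adjusted p = 0.000263). Line 7 was the lowest for both Gzmb and Alox5, while the highest line differed in all 3 genes. None of the 3 listed pairs in this programme passed the correlation test. Mcpt8 with Prss34 had r = 0.29 and Cpa3 with Gzmb r = -0.04 (exact permutation adjusted p = 0.551 and 0.912). Fcer1a with Ms4a2, the alpha and beta chains of the same IgE receptor, had r = -0.54 (exact permutation adjusted p = 0.286). Kit, the stem cell factor receptor, read 5.43 to 5.88 in all ITD lines and did not pass.

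Erythroid and megakaryocyte genes had their extremes in lines 7 and 4, where the list mean lay 0.39 below and 0.36 above the ITD mean. Gata1 is the master factor of red cells, platelets, mast cells and eosinophils, and Klf1 acts with it in red cells. Gata1 read 7.55 in line 7, against 8.77 to 9.38 in the other 8 lines, with a median of 9.01 (SD 0.51, 0.14 within control pairs, limma adjusted p = 0.00354). Its controls read 6.83 and 6.79 in ligand-treated wild-type cells, 6.68 and 6.32 in wild-type cells, 8.43 and 8.28 in vector cells, and 9.55 and 9.48 in parental cells. Line 7 thus lay between the wild-type FLT3 lines and the vector line, and the other 8 lay between vector and parental cells. Klf1 read 6.30 in line 7, against 7.29 to 7.89 (limma adjusted p = 0.0177), and Gp9, a platelet glycoprotein, 6.94, against 7.88 to 9.04 (limma adjusted p = 0.00653). Gata1 and Klf1 had r = 0.92 (exact permutation adjusted p = 0.0581), and r = 0.13 without lines 4 and 7. Pf4, platelet factor 4, followed another order and was highest in line 4, at 9.49, and lowest in line 9, at 6.74. Of 16 measured genes of the list 8 passed (50%), with a median correlation of 0.19, and the globin genes were not analysed here.

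Among 35 myeloid and progenitor transcription factors, 15 passed (42.9%), with a median pairwise correlation of 0. Spi1 and Cebpa, the factors PU.1 and C/EBP alpha that set the myeloid fate, ranged only from 8.85 to 9.29 and from 8.91 to 9.50 (limma adjusted p = 0.248 and 0.159). Klf6 was high in lines 7, 5 and 4, at 8.75, 8.48 and 8.30, against 7.0 to 7.67 in the other 6. Meis1, a partner of HOX proteins, was high in line 4 at 8.04 and low in line 7 at 6.56, against 6.74 to 7.74. Lmo2, an adaptor of blood progenitors, was lowest in line 7 at 9.41, against 9.88 to 10.72. The erythroid factor Gata1 and the myeloid factor Spi1 had r = -0.51, which did not pass, and rho = -0.87 (exact permutation adjusted p = 0.286 for r and 0.0361 for rho).

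**Figure D3:**
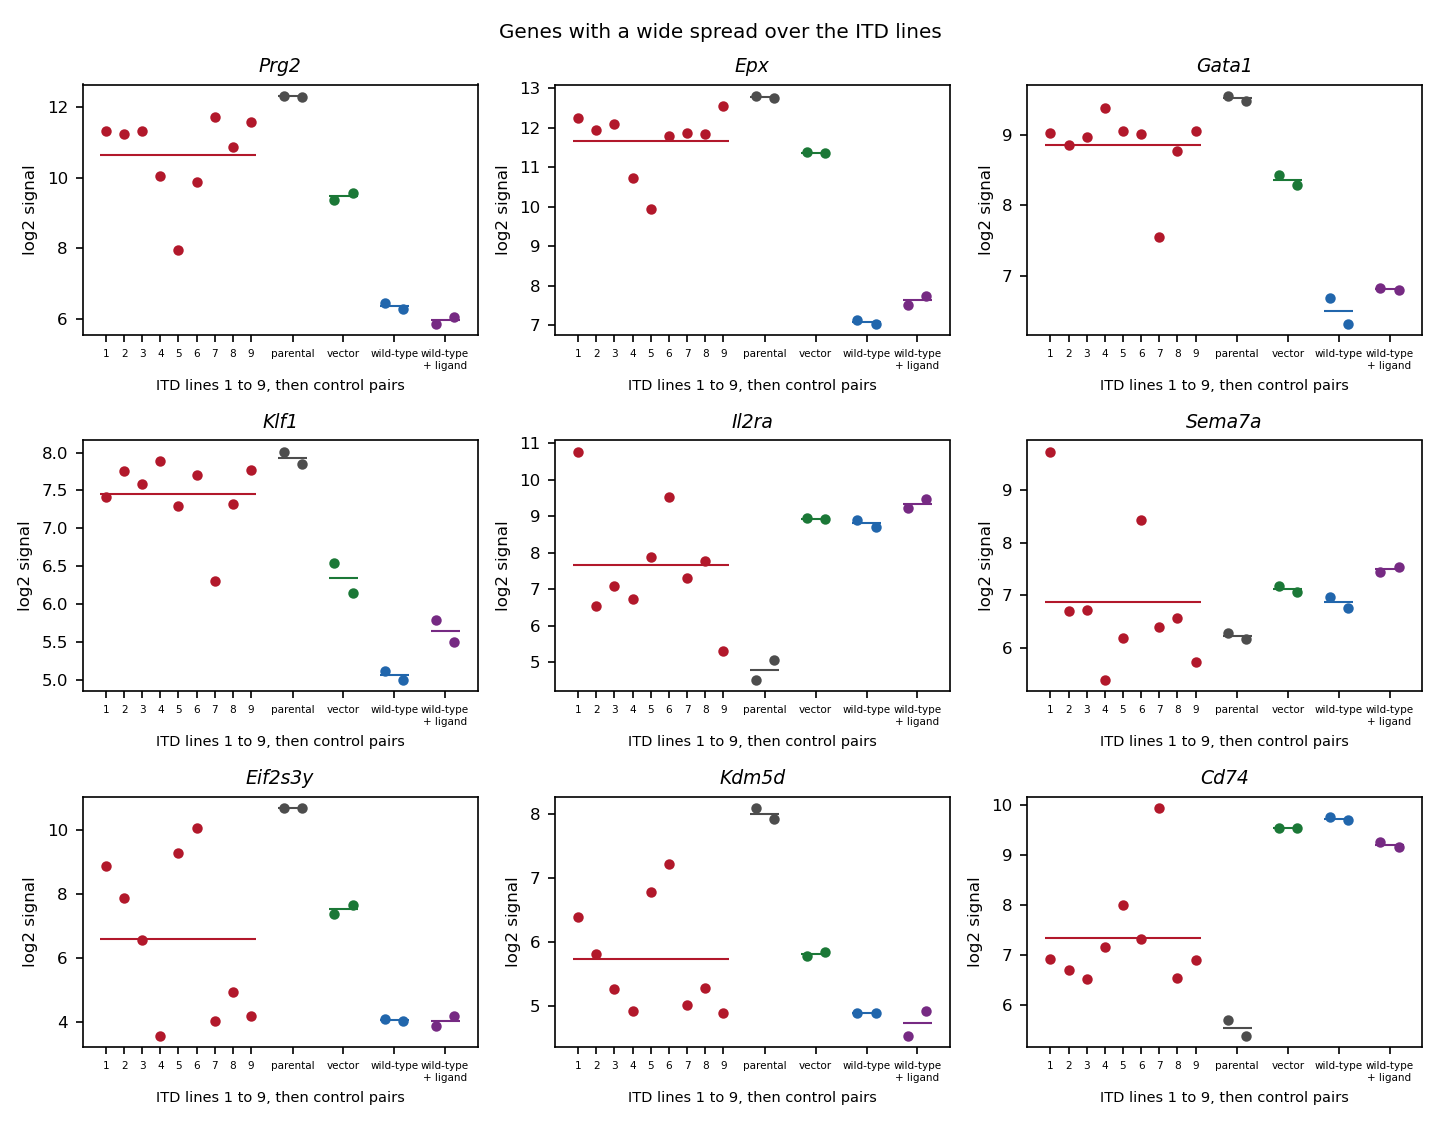
Log2 signal (vertical axes) of 9 genes in each array (horizontal axes), with ITD lines 1 to 9 on the left, the control pairs on the right, and a bar at each group's mean. Line 5 is lowest for Prg2 and Epx, line 7 is lowest for Gata1 and Klf1 and highest for Cd74, lines 1 and 6 are highest for Il2ra and Sema7a, and Eif2s3y runs from 3.59 to 10.06.

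Inflammatory genes did not move as a group, although several of the widest were highest in line 7. Of 26 monocyte and macrophage genes 12 passed (46.2%), and of 24 chemokine and cytokine genes 11 (45.8%), with median correlations of 0.09 and 0.06. The monocyte and macrophage mean lay 0.26 above the ITD mean in both line 5 and line 7, and the chemokine and cytokine mean 0.29 above it in line 7. Other called members had other orders: Ccl9, a myeloid chemokine, was lowest in line 7, at 8.96, its relative Ccl6 was highest in line 3, at 10.03, and Clec5a, a myeloid lectin receptor, was highest in line 5, at 7.12. Ctss, cathepsin S, read 8.02 in line 7 and 7.21 in line 5, against 5.54 to 6.31 in the other 7 (limma adjusted p = 0.000204). Ccl3, a macrophage chemokine, read 9.72 in line 7 and 6.59 in line 4, against 7.04 to 8.54 (limma adjusted p = 0.000128). Ccl3 and its neighbour Ccl4 correlated with r = 0.88 and rho = 0.75 (exact permutation adjusted p = 0.0311 for r), and with r = 0.52 without lines 4 and 7. Cd74, the invariant chain of MHC class II, read 9.95 in line 7 and 8.0 in line 5, against 6.53 to 7.33 (SD 1.08, limma adjusted p = 9.02e-05). Its controls averaged 9.22 in ligand-treated wild-type, 9.73 in wild-type, 9.54 in vector and 5.55 in parental cells. For the class II chains H2-Aa and H2-Ab1 no spread was detectable. They ranged from 6.12 to 6.99 and from 6.30 to 7.04 (limma adjusted p = 0.0741 and 0.136). H2-Aa was highest in line 7, as Cd74 was, and H2-Ab1 in line 1. The listed pair H2-Aa and Cd74 had r = 0.52, without passing (exact permutation adjusted p = 0.286). Of 10 genes of the class II list 2 passed (20%), a share close to the 18.4% background. Csf1r, the CSF-1 receptor, and Ctss had r = 0.67 (exact permutation adjusted p = 0.17).

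Interferon-induced genes differed by smaller steps. Of 26 measured 12 passed (46.2%), with a median correlation of 0.29, and of 0.11 without lines 5 and 8. The list mean lay 0.39 above the ITD mean in line 5 and 0.31 below it in line 8, against 1.42 and 1.38 above it in the vector arrays. Usp18, a brake on interferon signalling, read 8.27 in line 5, against 5.98 to 7.34 in the other 8. Ifit1, an antiviral RNA-binding protein, was highest in line 7, at 6.73, against 4.16 to 5.51. The vector line thus stood further from the ITD lines in this programme than the ITD lines stood from each other.

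The signalling targets of FLT3 had a median SD of 0.23 for STAT5 targets and 0.24 for ERK feedback genes, against 0.26 to 0.54 in the 6 lineage lists and 0.22 in the transcription factor list above. These medians were not compared by a test, and the STAT5 list holds Il2ra, with its SD of 1.63. Of 19 STAT5 targets 8 passed (42.1%), with a median correlation of -0.07 over the ITD lines, against 0.60 over the controls. Cish, a feedback inhibitor that STAT5 induces, read 8.09 in line 4, against 9.01 to 9.58 in the other 8 (limma adjusted p = 0.000996). Socs2, another STAT5 target, ranged from 7.26 to 7.88 without passing (limma adjusted p = 0.0731), and the pair had r = -0.17. Of 25 ERK feedback and immediate early genes 11 passed (44%). Dusp6, the phosphatase that resets ERK, ranged only from 9.72 to 10.41 (SD 0.26), against means of 10.37 in ligand-treated wild-type, 10.28 in wild-type, 8.85 in vector and 8.71 in parental cells. Every ITD line lay closer to the wild-type FLT3 lines than to vector or parental cells. Dusp2 read 10.04 in line 7, against 7.76 to 8.81, and Dusp4 was highest in lines 4 and 7, at 9.71 and 9.56, against 8.43 to 9.39.

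The FLT3 transgene signal differed by less than 1 log2 unit between lines. Over its 6 probe sets it read 9.48 and 9.46 in lines 4 and 3 and 8.73 in line 7, against 8.97 to 9.19 in the other 6 lines (SD 0.24). The Flt3 gene value averages 19 probe sets, most of which do not detect the transgene, and ranged from 7.08 to 7.32 (SD 0.08, limma adjusted p = 0.925) in another order of lines. The 6 listed pairs of this gene value with Dusp6, Egr1, Cish, Prg2, S100a8 and Myc did not pass, with r from -0.82 to 0.22. They say little about the receptor. With the transgene probe sets in their place, an alternative added after seeing the data, r ran from -0.62 for Cish to 0.05 for Dusp6, and none passed (exact permutation adjusted p from 0.452 to 0.916 over the 6). With 9 lines, weak relations would not be detected. Cytokine receptors varied gene by gene, with 10 of 23 passing (43.5%) and a median correlation of 0.03. Csf2rb, the common beta chain of the IL-3 receptor, read 11.52 in line 3, against 9.49 to 10.59, and Il1r1, an interleukin-1 receptor, was lowest in line 4, at 6.35, against 6.78 to 8.02.

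Growth and metabolism genes differed by small amounts. Of 20 genes of Myc and ribosome biogenesis 12 passed (60%), but their median SD was 0.18 and their median correlation 0.29, against 0.91 over the controls. Myc ranged from 12.03 to 12.52. Ncl, nucleolin, read 10.17 in line 9, against 10.99 to 11.15 in the other 8 (limma adjusted p = 0.0011), and Mycn read 7.29 in line 7, against 7.99 to 8.79. Of 19 cholesterol synthesis genes 11 passed (57.9%), and their list mean was 0.24 above the ITD mean in line 9 and 0.18 below it in line 8. Idi1, an isomerase of that route, was highest in line 1 at 10.29 and lowest in line 5 at 9.01, and Insig1, which restrains it, read 8.82 in line 4, against 9.40 to 9.89. Of 25 glycolysis genes 7 passed (28%), with a median correlation of -0.01. Of 20 Wnt pathway genes 4 passed (20%), and Ctnnb1, beta-catenin, ranged from 10.68 to 11.19. The Wnt share is close to the 18.4% background.

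The linker histones H1f2, H1f3 and H1f4 were highest in lines 4 and 5. H1f2 read 10.9 and 10.79 in these lines, against 9.69 to 10.28 in the other 7. Of 6 measured histone genes 4 passed (66.7%). H1f4 read 12.28 and 11.94 in lines 4 and 5, against 10.96 to 11.74 in the other 7 (limma adjusted p = 0.00104), and H1f3 read 9.75 in line 4, against 8.27 to 8.99 (limma adjusted p = 0.00192). Markers of cells that 32D should not hold gave the lowest counts: 2 of 17 lymphoid and plasmacytoid genes (11.8%) and 0 of 12 non-haematopoietic genes passed the limma test.

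Of 4 measured genes of the Y chromosome and X inactivation list, 2 passed (50%), the Y-linked Kdm5d and Eif2s3y. Usp9y, also Y-linked, did not pass. Eif2s3y had the largest SD among called genes with at least 3 probe sets. This Y-linked translation factor read 8.87, 7.89, 6.57, 3.59, 9.28, 10.06, 4.04, 4.96 and 4.21 in lines 1 to 9 (SD 2.5, 0.15 within control pairs, limma adjusted p = 7e-06). It read 3.90 and 4.20 in ligand-treated wild-type cells, 4.11 and 4.04 in wild-type cells, 7.39 and 7.67 in vector cells, and 10.68 and 10.69 in parental cells. The ITD lines were thus spread over nearly the whole span between the wild-type FLT3 lines and parental cells, and lines 4, 7, 8 and 9 lay at the low end. The Y-linked demethylase gene Kdm5d ran the same way, from 7.23 in line 6 to 4.90 in line 9 (limma adjusted p = 0.00193). Xist, which silences an X chromosome, ranged from 5.03 to 5.79 and did not pass (limma adjusted p = 0.568). In polyclonal populations, fewer cells with a transcript and less transcript per cell cannot be told apart.

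**Figure D4:**
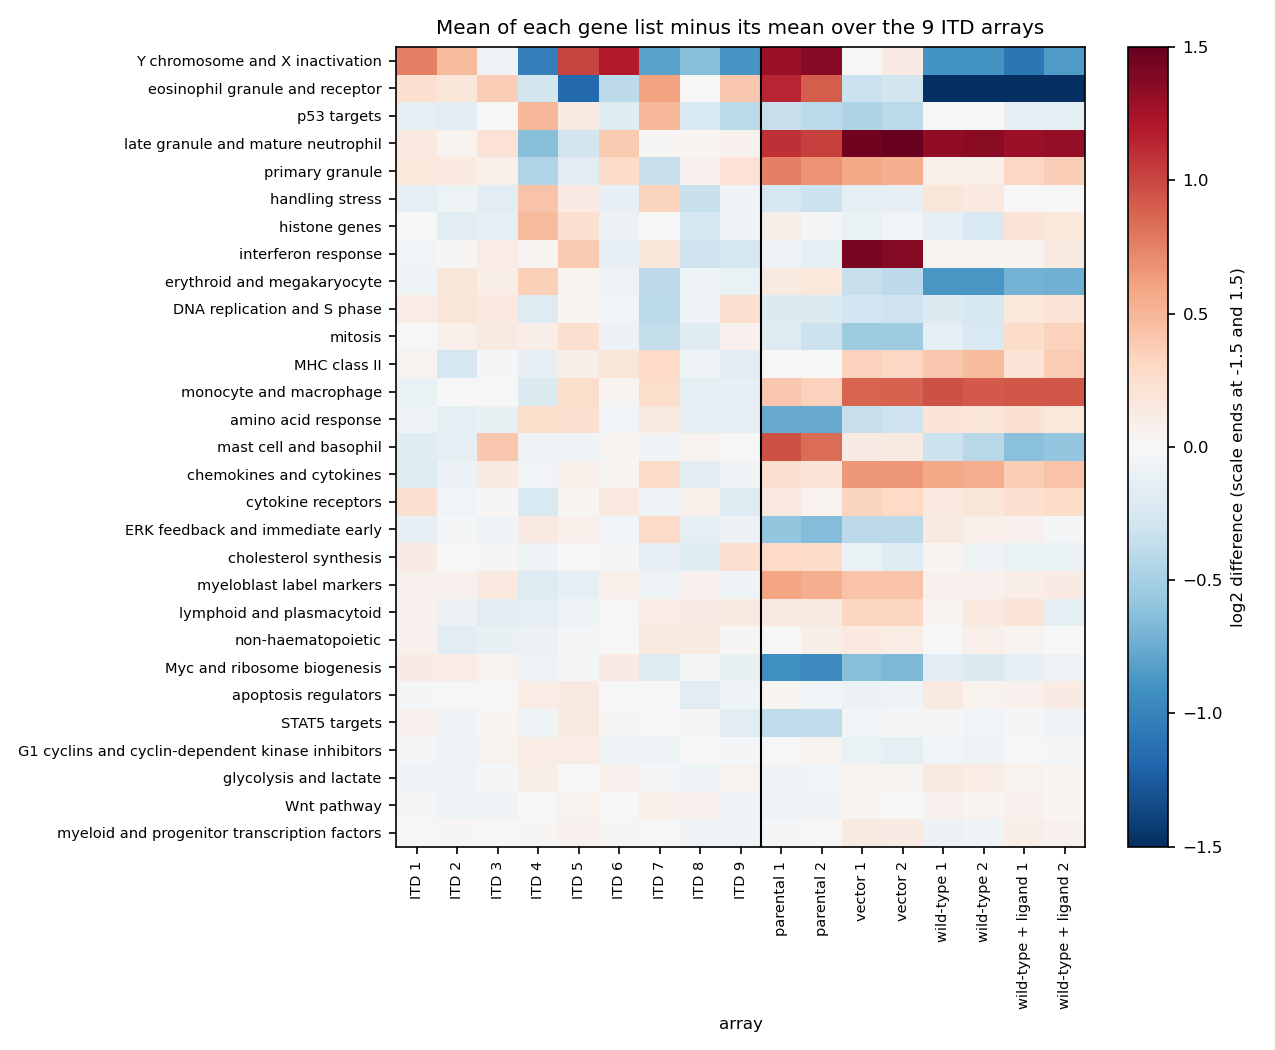
Mean log2 signal of 29 gene lists (rows, ordered by their spread over the ITD lines) in each of 17 arrays (columns, ITD lines left of the controls), minus the list's mean over the 9 ITD arrays. Lines 4 and 7 are high for p53 targets (0.50 in both) and handling stress (0.43 and 0.33) and low for primary granule genes (-0.45 and -0.34), and line 5 is lowest for eosinophil genes (-1.17).

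The gene pairs were listed with earlier results of these data known, so they were not chosen independently of these arrays. Among the 32 listed pairs that could be measured, 5 correlated over the 9 lines after adjustment (9 at an unadjusted p under 0.05). All 5, the eosinophil pairs Prg2 with Prg3 and Prg2 with Epx, S100a8 with S100a9, Ccl3 with Ccl4, and Mcm5 with Pcna, lie within a programme, where 16 pairs were tested. Of the 16 pairs across programmes, 0 passed the exact permutation test of r, and Gata1 with Spi1 passed that of rho (adjusted p = 0.0361). By rho, 3 of the 5 passed, while Prg2 with Epx (exact permutation adjusted p = 0.0574) and Ccl3 with Ccl4 (0.117) did not. Whether the share differs between the 2 kinds of pair was not tested.

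Clustering described how the most variable genes group, without a test. The 313 called genes with an SD of at least 0.5 and at least 3 probe sets were joined by average linkage on 1 minus r, and 273 of them fell into 7 modules of at least 10 genes. The largest module held 103 genes, whose mean lay 0.99, 0.77 and 0.38 above the ITD mean in lines 7, 4 and 5 and 0.17 to 0.53 below it in the other 6. Its most central genes were Smox, a spermine oxidase, Lpin1, a phosphatidate phosphatase, Ddit4, a stress inhibitor of mTORC1, Qpctl, Mdm2, Btg1, an antiproliferative gene, Acot2, a mitochondrial thioesterase, and Polk, a translesion DNA polymerase. Jun, Fos, Atf3, Ddit3, Trib3, Fas, Eda2r and Trp53inp1 were members too, so the p53, immediate early and amino acid response genes that varied most belonged to the same cluster. Its median pairwise correlation was 0.78, and 0.59 without lines 4 and 7.

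Values of the central genes show the size of this shared shift. Smox read 8.79, 8.52 and 8.08 in lines 7, 4 and 5, against 7.08 to 7.48 in the other 6 lines (limma adjusted p = 0.000427). Ddit4 read 11.56, 11.59 and 11.20, against 9.96 to 10.41 (limma adjusted p = 0.00322). Polk read 9.21, 9.43 and 8.54, against 7.77 to 8.24 (limma adjusted p = 0.0013). The 3 lines did not overlap the other 6 in any of them. These genes were picked for their correlation with the module mean, so this separation follows from the choice, and the values give only its size. Among the controls, Ddit4 read 11.11 and 10.88 in ligand-treated wild-type cells, 11.36 and 11.29 in wild-type cells, 10.97 and 10.74 in vector cells, and 10.12 and 10.61 in parental cells. The wild-type arrays thus fell within the range of the 3 high ITD lines.

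The module of 67 genes ran opposite to the largest module in most lines, but not in lines 5 and 9. Its mean lay 0.85, 0.81 and 0.54 below the ITD mean in lines 7, 4 and 9 and 0.79 and 0.58 above it in lines 1 and 6, with a median correlation of 0.64, and of 0.53 without lines 4 and 7. Akr1c19, Lsp1, a leukocyte actin-binding protein, Calml4, Cul7, a cullin scaffold, Prkar2a, a regulatory subunit of protein kinase A, Rgl1, Slc44a2 and Usp17ld were its most central genes, and Sema7a, Il2ra, Met, Serpina3f and the Y-linked Eif2s3y and Kdm5d belonged to it. Lsp1 read 6.45, 6.77 and 7.35 in lines 4, 7 and 9, against 7.95 to 8.56 in the other 6 (limma adjusted p = 0.000212). A module of 45 genes was high in lines 4 and 5, by 1.04 and 0.71, and held Rab27b, a GTPase of granule release, Gadd45g, a growth arrest gene, and the histone genes H4c12 and H2bc18. H2bc18 read 10.03 and 9.64 in these lines, against 8.16 to 8.53 in the other 7.

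The smaller modules had their extremes in a few lines. The 19 genes around Prg2, Olr1, Epx, Prg3, Ngp, Trpm2, Clec7a and Mettl7a1 lay 1.41 below the ITD mean in line 5 and 0.63 below it in line 4. Over the 8 control arrays, which are 4 groups of 2, their median correlation was 0.90. It was 0.70 over the ITD lines, and 0.16 without lines 4 and 5. The 15 genes around Ripor1, Gata1, Cxcr2, Gp9 and Asb11 lay 1.28 below in line 7, with 0.85 over the controls, 0.79 over the ITD lines and 0.21 without lines 4 and 7. The 11 genes around Lilr4b, Lilrb4a, Csf1, Ccl3, Spp1 and Ccr1, inflammatory genes of macrophages, lay 1.09 above in line 7 and 0.98 below in line 4. The 13 genes around Gprasp1, Ces2e and Nr1d2 lay 0.66 above in line 1 and 0.92 and 0.57 below in lines 9 and 5. In the 5 modules of 45 genes or fewer, the correlation without the 2 farthest lines was 0.16 to 0.31, so their pattern rests largely on 2 lines each.

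Neighbouring genes shifted together on parts of a few chromosomes. The 12692 genes with a mean above 6 and a position in the RefSeq table were ordered along each chromosome and divided into 6 segments of 54 to 179 genes, and the median deviation of each segment from the mean of the 9 lines was taken relative to that of all genes. Of 120 segments, 10 held a line at 0.15 or more from 0, a threshold chosen after the values were seen. The 360 genes of segments 4 to 6 of chromosome 9 had medians of -0.15, -0.18 and -0.16 in lines 4, 7 and 9, against 0.04 to 0.13 in the other 6 lines. In lines 4, 7 and 9, 72.8%, 69.2% and 68.1% of these genes lay below the ITD mean, against 21.4% to 39.7% in the other 6. Wild-type FLT3 cells had medians of -0.17 and -0.16 with ligand and -0.16 and -0.20 without it, vector cells had -0.08 and -0.11, and parental cells had 0.02 and 0.01.

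The same 3 lines were high on segment 6 of chromosome 11, where 178 genes had medians of 0.20, 0.19 and 0.17 in lines 4, 7 and 9, against -0.14 to -0.05 in the other 6. Vector cells read 0.17 and 0.16 there, while wild-type cells read -0.15 and -0.17 with ligand and -0.24 and -0.21 without it, and parental cells -0.12 and -0.13. Lines 4, 7 and 9 thus lay on the side of the vector arrays on both chromosomes, and on that of the wild-type FLT3 arrays on chromosome 9 alone of these 2. Shifts of a single line were seen on segments 4 to 6 of chromosome 16 in line 9 (0.18, 0.15 and 0.19), on segment 2 of chromosome 1 and segment 1 of chromosome 18 in line 4 (0.22 and 0.16), and on segment 1 of chromosome 5 in line 7 (0.16). On segments 2 to 6 of chromosome 17 the ITD lines ranged from -0.08 to 0.09, against 0.24 to 0.32 and 0.24 to 0.41 in the ligand-treated wild-type arrays and 0.23 to 0.36 and 0.19 to 0.31 in the wild-type arrays. DNA copy number was not measured. Of the 2 largest modules, 8 of 103 and 8 of 67 genes lie anywhere on chromosome 9, against 723 of the 12692 genes used for the segments. Whether these shares differ was not tested.

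**Figure D5:**
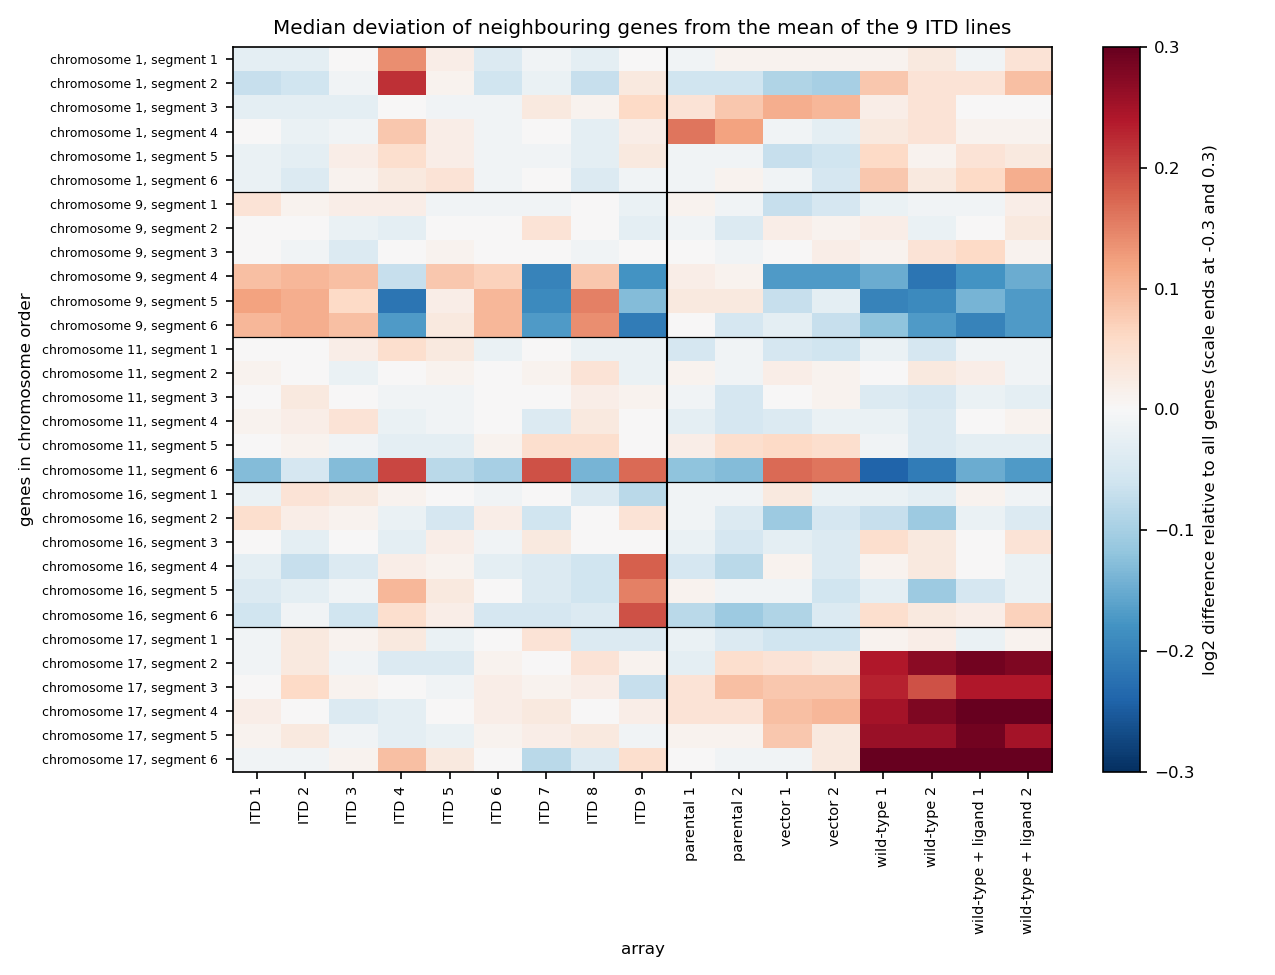
Median log2 deviation from the mean of the 9 ITD lines, relative to all genes, for 6 segments of neighbouring genes on each of 5 chromosomes (rows) in 17 arrays (columns, ITD lines left of the controls). ITD lines 4, 7 and 9 are low on segments 4 to 6 of chromosome 9 and high on segment 6 of chromosome 11, line 9 is high on segments 4 to 6 of chromosome 16, and both wild-type FLT3 groups are high on segments 2 to 6 of chromosome 17.

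Some genes that differ strongly between the control groups differed far less over the ITD lines. Of 127 genes whose 4 control means had an SD of at least 1, the 10 with the smallest ITD SD were Tnfsf9, Il15, Cd9, Cd2ap, Lrp12, Oas3, Oasl2, Ciart, Slc6a9 and Cyp2b9, with ITD SDs of 0.19 to 0.26, near the median of 0.199 over all genes. Of these 10, Cd9, Lrp12, Oas3, Ciart and Slc6a9 passed the test of spread over the ITD lines. Cd9, a tetraspanin, read 9.14 to 9.92 in the ITD lines, against 7.16 and 7.12 in ligand-treated wild-type, 6.92 and 6.95 in wild-type, 9.49 and 9.45 in vector and 9.64 and 9.50 in parental cells. Tnfsf9, a ligand of the TNF family, read 6.66 to 7.14 in the ITD lines, against 7.33 in both ligand-treated wild-type arrays, 8.44 and 8.33 in wild-type, 6.25 and 6.0 in vector and 6.11 and 6.01 in parental cells. The ITD lines thus resembled vector and parental cells for Cd9, and lay between them and the wild-type lines for Tnfsf9. Oas3 and Oasl2, interferon-induced genes of the oligoadenylate synthetase family, ranged from 6.24 to 6.91 and from 5.65 to 6.43 in the ITD lines, against vector means of 8.61 and 8.56.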

How the data were processed

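Total RNA of 17 cultures was hybridised to Affymetrix mouse exon arrays. The deposited values are log2 signals per probe set, made by the authors with Affymetrix Expression Console 1.1 and RMA, per the submitters' processing notes, and array medians lie between 4.63 and 4.69. The genome build and annotation behind the probe sets are not given in the sources used here. Of 1256831 probe sets, 20744 read 0 throughout, and 931387 without a symbol and 6684 with several were not used. The annotation's 22296 symbols were updated through the RefSeq table (4227 changed, 63 unmatched and kept as given). A gene's value is the mean of its probe sets with a 17-array mean above the median of all probe sets (4.599), which left 237584 probe sets and 20227 genes. The arrays' number, not a read depth, limits precision.

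Each ITD array and each of the 4 control pairs had its own coefficient in limma 3.58.1 (R 4.3.3). A moderated F over 8 contrasts tested whether the ITD coefficients were equal, with variances moderated along a trend on signal (4 residual and 4.73 prior degrees of freedom) and Benjamini-Hochberg adjustment over all genes. The error thus comes from the control pairs, and whether the ITD lines share it was not tested. Pearson r and Spearman rho over the 9 lines were tested for 32 of 36 listed pairs by exact two-sided permutation of 362880 pairings (the smallest p this allows is 2.8e-06), adjusted over the pairs. The other 4 were not analysed here. Median correlations within lists and modules (tree height 0.5) are descriptions. Means are given with SD. Python 3.11.15, numpy 2.4.6, pandas 2.3.3, scipy 1.17.1 and matplotlib 3.10.9 were used, and both tests were checked on simulated data.

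The lists, pairs and members were chosen with earlier results of these data known. Genes were named by rule: Flt3, all pair genes, the 24 called genes with the largest ITD SD and at least 3 probe sets, up to 3 called genes per list, the 10 genes of smallest ITD SD among those with a control SD of at least 1, and up to 8 central genes per module. The lowest SD named this way was 0.945 (Jun) and the next gene, Pde6g, had 0.916. Other names were chosen after their values were seen. Replicate numbers did not pair the control samples, since replicate differences correlated between groups at -0.33 to 0.26.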

Additional observations from a re-analysis of the deposited data

Results flagged for a closer look

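For each named gene, each list mean and the transgene signal, the gap between the extreme line and its nearest neighbour was taken as a share of the range over the 9 lines, and the 16 of 201 with a share above Dixon's 95% value are listed as a description. Chance flags about 1 in 20 sets of unselected values, but most genes here were named for their spread and many move together, so that rate does not apply and no line is tested. Line 7 was the extreme line in 9 of the 16. It was the outlying low line for Asb11 (7.24, against 8.54 to 9.34 in the other 8), Gata1 (7.55, against 8.77 to 9.38), Gcsam (5.85, against 7.11 to 8.32), Klf1 (6.30, against 7.29 to 7.89), Ripor1 (8.29, against 9.52 to 10.17) and Ttk (8.26, against 8.98 to 9.49). It was the outlying high line for Ccl4 (7.07, against 5.61 to 6.23), Cd74 (9.95, against 6.53 to 8.0) and Dusp2 (10.04, against 7.76 to 8.81). Asb11, Gcsam, Gata1 and Ripor1 belong to the same module, so these are not separate events.

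Line 4 stood apart at the low end for Cish (8.09, against 9.01 to 9.58) and Insig1 (8.82, against 9.40 to 9.89) and at the high end for H1f3 (9.75, against 8.27 to 8.99). Line 9 stood apart for Gins2 (9.72, against 8.02 to 8.88) and, low, for Ncl (10.17, against 10.99 to 11.15), whose gap was the largest share of the range (0.84). Line 5 was the outlying low line for Prg2 (7.96, against 9.87 to 11.71). The mean of the mast cell and basophil list was 0.40 in line 3, against -0.18 to 0.05 in the others.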

How the results depend on the processing

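The count of 3729 called genes was 801 without the variance trend, 516 with an ordinary F ratio, 2478 with odd-numbered probe sets, 2498 with medians of probe sets, and between 2388 and 4458 over single left-out arrays (2687 to 4176 for ITD lines, 2388 and 2390 for the vector arrays). Replicate numbers do not pair the samples, and with a replicate block the count was 2778. Without lines 4 and 7, added after seeing the data, it was 1602. No filter gave 3101 genes, a minimum of 6 gave 4473, a second quantile normalization 3778, even-numbered probe sets 2761, and leaving out the ligand-treated pair 2845. The 5 called pairs became 4 with Spearman rho, 4 with quantile normalization, 7 without a filter, 7 with a minimum of 6, 3 with medians, and 2 to 5 with single lines left out. The 4 pairs by rho were 3 of the 5 and Gata1 with Spi1. None of the 5 turned the sign of its r under these alternatives or without its 2 farthest lines, whereas of the 27 pairs not called, 11 turned it under at least 1 alternative and 4 without the 2 farthest lines (Cish with Socs2, Mpo with Cdk1, and Flt3 with Egr1 and with Cish). Of 157 called named genes, 58 stayed called under all 28 alternatives, while 91 were lost with the ordinary F ratio and 43 without the trend. The causes were not tested. Genes near background cannot show small differences, and each line has a single array.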

Other observations

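The first principal component of the called genes over the 9 lines carried 36.3% of their variance and separated lines 4, 7 and 5 (loadings 0.58, 0.49 and 0.27) from the other 6 lines (-0.31 to -0.03). The second, with 21.9%, set lines 4 and 5 (0.42 and 0.38) against line 7 (-0.66), and the third, with 15.2%, was carried mainly by line 9 (-0.86).

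Basophil and macrophage genes did not all share 1 order of lines. Mcpt8, a basophil protease, read 8.70 in line 7, against 9.69 to 10.98 in the other 8 lines, while its partner gene of the basophil list, Prss34, was lowest in line 5, at 9.24, against 10.18 to 11.99. Clec4e, a macrophage receptor for microbial glycolipids, was high in lines 7, 5 and 4, at 10.10, 10.03 and 9.73, against 8.22 to 9.26 in the other 6, whereas Adgre1, which encodes the macrophage antigen F4/80, was lowest in line 4, at 7.19, against 8.17 to 9.16 in the other 8. These values were chosen after they were seen.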
